A study of Homo sapiens with 7 samples.

Results

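The H3K27me3 domains called in Clone 3 alone were those autosomal domains of the Clone 3 set that shared no base with any H3K27me3 domain of Clone 6. They numbered 772 of 2332 autosomal Clone 3 domains, or 33.1% (exact binomial 95% interval 31.2 to 35.1, counting error only). The other 1560 domains shared at least 1 base with Clone 6 and are called overlapping domains here. Both clones are HCT116 cells, a human colorectal carcinoma epithelial cell line, and both carry an shRNA against UHRF1 that doxycycline can induce. UHRF1 is a chromatin reader and ubiquitin ligase that supports maintenance DNA methylation by DNMT1. All libraries used here were baseline cultures kept for 14 days without doxycycline, so the shRNA was not induced in either clone. Each clone is 1 clonally expanded line, so a difference between them is a difference between 2 lines and not between conditions. H3K27me3 was measured by chromatin immunoprecipitation and sequencing in 2 samples per clone, with the same antibody lot, and the authors deposited for each clone 1 set of domains found in both replicates. H3K9me3 was measured in 2 samples of Clone 3.

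H3K27me3 is written by Polycomb repressive complex PRC2 and marks facultative heterochromatin, in which genes used in other cell types or at other times are kept silent. In differentiated and cancer cells the mark often forms broad blanket-like domains across gene-poor, late-replicating chromatin, besides the compact domains at CpG-rich promoters of developmental regulators. H3K9me3 marks constitutive heterochromatin and is laid down by other enzymes. The deposited sets hold domain coordinates in whole kilobases and 2 scores per domain, with no read counts. The methods give only a minimum depth for the libraries, so the depth behind a domain is unknown. The rule itself used the domain calls, and the sets used hold the replicates merged. No test between the clones could therefore be made from them, and every comparison below is a description of 2 merged sets. A domain that reached the caller's threshold in only 1 Clone 6 replicate is missing from the Clone 6 set and would leave its Clone 3 partner among the 772. Weaker enrichment, lower depth and absence of the mark in Clone 6 cannot be told apart.

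The promoters of 6 genes in these domains are shown as examples of promoters with few and with many CpGs, not as the full range. Each sequence is the 250 bases before the gene's start in RefSeq, on the gene's own strand and 5′ to 3′. These starts lay at most 7 bp from those of GENCODE, which placed the genes in domains, except for PELI2 (597 bp) and PCSK1 (895 bp). The RefSeq promoters, of GRCh38.p14, matched the hg38 genome base for base. Capitals mark every CpG dinucleotide, which reads as CG on both strands.
FIGN: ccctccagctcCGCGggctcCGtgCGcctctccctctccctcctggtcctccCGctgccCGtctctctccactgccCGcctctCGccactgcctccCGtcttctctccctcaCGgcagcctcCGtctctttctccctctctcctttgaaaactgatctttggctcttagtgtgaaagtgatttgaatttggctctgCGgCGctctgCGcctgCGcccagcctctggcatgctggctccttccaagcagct
PLCL1: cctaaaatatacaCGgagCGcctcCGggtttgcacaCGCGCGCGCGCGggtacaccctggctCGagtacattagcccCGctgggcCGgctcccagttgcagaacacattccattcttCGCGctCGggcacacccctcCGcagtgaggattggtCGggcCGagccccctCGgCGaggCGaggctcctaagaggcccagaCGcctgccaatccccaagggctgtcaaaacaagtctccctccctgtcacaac
PELI2: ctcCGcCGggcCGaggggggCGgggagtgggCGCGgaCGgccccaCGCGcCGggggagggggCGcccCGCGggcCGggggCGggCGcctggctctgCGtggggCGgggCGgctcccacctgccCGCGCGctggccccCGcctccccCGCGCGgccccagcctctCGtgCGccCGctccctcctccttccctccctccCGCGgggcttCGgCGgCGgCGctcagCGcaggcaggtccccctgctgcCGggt
PCSK1: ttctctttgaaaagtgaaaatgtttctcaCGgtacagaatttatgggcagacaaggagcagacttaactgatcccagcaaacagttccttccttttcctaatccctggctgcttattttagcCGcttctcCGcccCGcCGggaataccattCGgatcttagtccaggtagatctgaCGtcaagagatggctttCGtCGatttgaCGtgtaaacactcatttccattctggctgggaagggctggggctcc
IFNG: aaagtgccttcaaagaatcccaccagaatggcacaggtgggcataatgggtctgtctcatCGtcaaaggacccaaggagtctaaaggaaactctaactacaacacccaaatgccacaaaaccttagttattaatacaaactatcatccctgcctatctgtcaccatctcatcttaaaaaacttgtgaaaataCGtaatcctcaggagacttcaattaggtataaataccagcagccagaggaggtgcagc
OR6C2: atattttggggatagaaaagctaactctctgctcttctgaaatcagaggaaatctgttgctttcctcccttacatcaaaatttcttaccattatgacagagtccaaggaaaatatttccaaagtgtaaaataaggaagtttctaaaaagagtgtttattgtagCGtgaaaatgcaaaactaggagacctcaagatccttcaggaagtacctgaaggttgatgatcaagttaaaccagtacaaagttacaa

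The first 3 of these sequences came from domains among the 10 longest. The FIGN promoter (chr2:163736009-163736258, minus strand) held 15 CpGs, that of PLCL1 (chr2:197804343-197804592, plus strand) held 22, and that of PELI2 (chr14:56118161-56118410, plus strand) held 37 at a GC content of 85.2%. FIGN encodes fidgetin, a microtubule-severing ATPase, PLCL1 a catalytically inactive relative of phospholipase C, and PELI2 a Pellino E3 ubiquitin ligase. The PCSK1 promoter (chr5:96433249-96433498, minus strand) lay in the domain farthest from Clone 6 and held 10 CpGs. PCSK1 encodes a convertase that cuts prohormones. The IFNG promoter (chr12:68159741-68159990, minus strand) held 2 CpGs and the OR6C2 promoter (chr12:55443826-55444075, plus strand) held 1. IFNG encodes interferon gamma, a cytokine of T and natural killer cells, and OR6C2 an odorant receptor. Over the 121 RefSeq promoters that lay wholly in these domains, 114 of which belong to genes whose GENCODE start also does, the median was 3 CpGs (95% interval 2 to 5), and 40 (33.1%) held at least 10. The 819 promoters in overlapping domains had a median of 4 and 35.8% with at least 10. Over all 14616 promoters in the table the median was 18, 69.7% held at least 10, and 96.9% held at least 1. At least 1 CpG was held by 89.3% of promoters in domains of Clone 3 alone and 89.6% of those in overlapping domains.

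The domains of Clone 3 alone were shorter than the overlapping ones. Their median length was 38.5 kb (95% interval 36 to 41), with quartiles of 24 and 75 kb and a range of 7 to 1145 kb. Rows of the file can be pieces of a longer domain, and when rows at most 10 kb apart were first joined there were 489 domains with a median of 61 kb. Overlapping domains had a median of 93 kb (85 to 103) and reached 1952 kb. Domains under 50 kb made up 475 of the 772 (61.5%) against 476 of 1560 overlapping domains (30.5%). Because they were short, the 772 domains covered 54.0 Mb, or 14.5% of the 373 Mb of autosomal H3K27me3 in Clone 3, although they were 33.1% of its domains. The share of Clone 3 domains without a Clone 6 partner fell from class to class of length. It was 54.1% under 25 kb (210 of 388), 47.1% from 25 to 50 kb, 32.7% from 50 to 100 kb, 25.5% from 100 to 200 kb, 10.6% from 200 to 500 kb, and 4.92% at 500 kb or more (9 of 183). A longer domain has more bases with which to meet Clone 6 and the rule favours short domains for that reason. The 632 autosomal domains of Clone 6 alone, 35.1% of 1803, had a median of 46 kb (42 to 48) and a longest domain of 466 kb. At 100 kb or more there were 133 domains of Clone 3 alone with 29.4 Mb, against 64 of Clone 6 alone with 10.5 Mb.

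**Figure D1:**
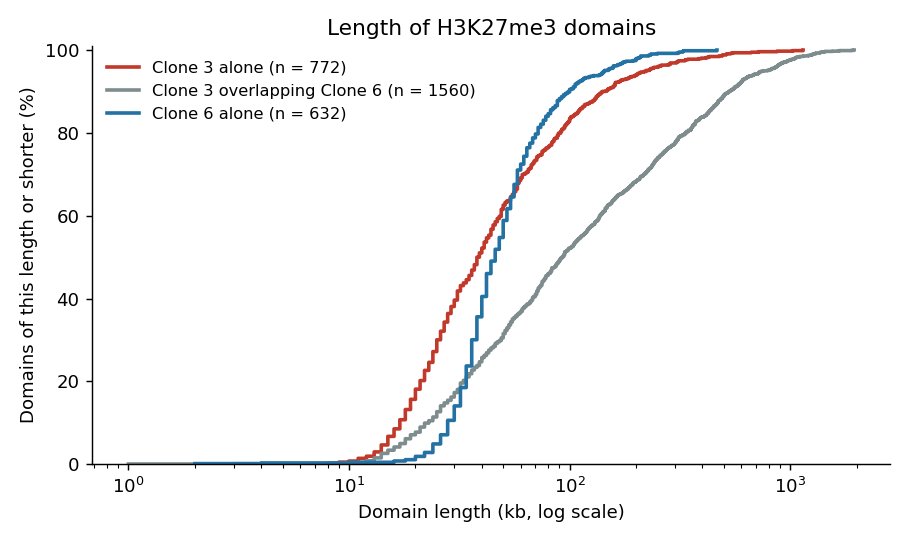
Lengths of H3K27me3 domains in kb on a log axis, for domains of Clone 3 alone, Clone 3 domains that overlap Clone 6, and domains of Clone 6 alone. The domains of Clone 3 alone centre on 38.5 kb and the overlapping domains on 93 kb, and the longest domain of Clone 3 alone reaches 1145 kb.

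The scores of domains of Clone 3 alone were lower over all lengths together, and the first score was also lower in each class of length. The file does not give the scale of the scores or say which replicate each belongs to, so they are compared only within the Clone 3 set. The first score had a median of 22.3 in domains of Clone 3 alone and 61.5 in overlapping domains, and the second score 38.4 and 55.8. The second score was equal to that of a neighbouring row in 663 of the 772 domains (85.9%), so it mostly stands for a run of rows rather than for 1 domain. The lower of the 2 scores had a median of 17.4 against 32.2. With the Clone 3 domains cut into 4 classes of near equal size by lower score, the lowest class ran from 10.8 to 15.7, and there 307 of 580 (52.9%) had no Clone 6 partner. In the highest class this held for 63 of 584 (10.8%). The lower score also rose with length. Under 50 kb the first score had a median of 16.0 in domains of Clone 3 alone and 19.3 in overlapping domains. It was 40.2 and 49.1 from 50 to 100 kb, and 90.2 and 190 at 100 kb or more. The second score was also lower under 50 kb (39.6 against 45.6) and at 100 kb or more (45.5 against 74.1). Among domains of 50 to 100 kb the median second score was higher in domains of Clone 3 alone, 28.1 against 24.2 in overlapping domains. In that class the median lower score was 23.2 in domains of Clone 3 alone and 23.3 in overlapping domains. It was 15.1 and 16.9 under 50 kb, and 42.7 and 72.1 at 100 kb or more.

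The longest domain of Clone 3 alone spanned 1145 kb of chromosome 2 (163393001 to 164538000), held the start site of FIGN, and lay 8234 kb from the nearest Clone 6 domain. Its scores were 300.5 and 134.6. The next spanned 1028 kb of chromosome 10 (50995001 to 52023000), 707 kb from Clone 6. It lay inside PRKG1, which encodes cGMP-dependent protein kinase 1, and held the start site of CSTF2T, a gene for an RNA 3′-end cleavage factor. The RefSeq promoter of PRKG1 also lay in this domain, while the GENCODE start of PRKG1 did not. The third, of 873 kb on chromosome 1 (69260001 to 70133000), held the start site of LRRC7, a gene for a postsynaptic scaffold protein, and had the highest lower score of the 772, 162.1. The fourth, of 719 kb on chromosome 2 (197787001 to 198506000), held the start site of PLCL1 and had a first score of 447.2. The fifth, of 666 kb on chromosome 2 (165042001 to 165708000), held those of SCN3A and SCN2A, both neuronal sodium channel genes, and of CSRNP3.

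The remainder of the 10 longest ran from 494 to 549 kb. A 549 kb domain on chromosome 14 (56021001 to 56570000) held the start sites of PELI2 and, in GENCODE but not in RefSeq, of TMEM260. A 537 kb domain on chromosome 2 (40028001 to 40565000) lay over most of SLC8A1, which encodes a sodium-calcium exchanger, and only 51 kb from Clone 6. This domain held the RefSeq promoter of SLC8A1 but not its GENCODE start. A 516 kb domain on chromosome 3 and a 512 kb domain on chromosome 6 lay between genes, 11138 and 7398 kb from Clone 6. A 494 kb domain on chromosome 8 (118623001 to 119117000) held the start sites of TNFRSF11B, which encodes the bone-protecting decoy receptor osteoprotegerin, and of the collectin gene COLEC10. None of the 10 met a Clone 3 H3K9me3 domain or shared a score with an overlapping neighbour. In 9 of the 10 the CpG density was below the median of 6.67 per kb over the 772.

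Several domains covered most of a long gene. PRKG1 had 1028 of its 1308 kb in a domain of Clone 3 alone, PLCL1 736 kb (95.9% of the gene), LRRC7 565 kb (96.8%) and SLC8A1 468 kb (91.0%). B3GALT1, a galactosyltransferase gene, had 526 kb (90.5%) in 5 such domains. KCNH7, a potassium channel gene, had 414 kb (88.5%), and SLIT2, which encodes a secreted axon guidance protein, 337 kb (91.3%). ADCY8, an adenylyl cyclase gene, lay wholly inside a domain with its 261 kb. ARHGAP15, a gene for a Rac GTPase-activating protein, had 344 kb (50.8%). Its RefSeq promoter lay in such a domain, while its GENCODE start did not. Of the 10 genes with most bases in these domains, ATRNL1 was the only one that also met a Clone 6 domain. It had 268 kb in domains of Clone 3 alone, 321 kb in overlapping domains and 221 kb in Clone 6 domains.

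The distance from a domain of Clone 3 alone to the nearest Clone 6 domain ranged from 1 to 17226 kb, with a median of 269.5 kb (95% interval 203 to 348) and quartiles of 42 and 1384.5 kb. With rows at most 10 kb apart joined first, the median was 441 kb. Within 50 kb of a Clone 6 domain lay 213 of the 772 (27.6%), from 50 kb to 1 Mb 337, and beyond 1 Mb 222 (28.8%). Beyond 5 Mb lay 79 (10.2%) and beyond 10 Mb 24 (3.11%). In the opposite direction, 137 of the 632 domains of Clone 6 alone (21.7%) lay over 1 Mb from a Clone 3 domain and 2 (0.316%) over 5 Mb, with a maximum of 5909 kb. The distances were measured to sets of unequal size, 1803 autosomal domains in Clone 6 and 2332 in Clone 3, and neighbouring rows are often pieces of 1 call. With rows at most 10 kb apart joined in both sets, an alternative chosen after seeing the data, 57 of 489 domains of Clone 3 alone (11.7%) and 2 of 564 of Clone 6 alone (0.355%) lay over 5 Mb away. Without joining, the medians were alike, 269.5 kb for Clone 3 alone and 257.5 kb for Clone 6 alone.

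**Figure D2:**
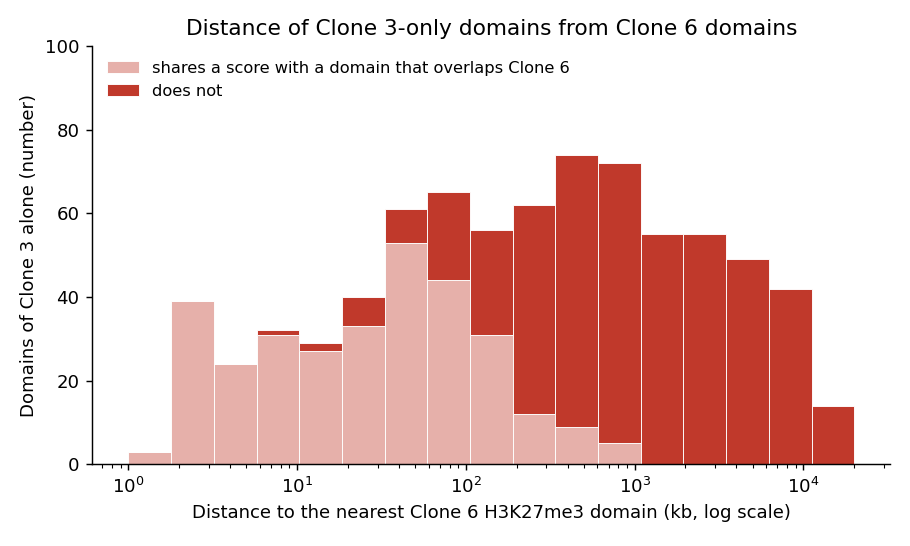
Distance in kb, on a log axis, from each domain of Clone 3 alone to the nearest Clone 6 domain. Bars are stacked by whether a domain shares a score with a domain that overlaps Clone 6. The median is 269.5 kb, and 79 domains of Clone 3 alone lie beyond 5 Mb.

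At the edge of the rule were 3 domains that lay 1 kb from Clone 6, on chromosomes 2, 17 and 20, and 23 that lay at most 2 kb away. On the other side, a 1 kb domain on chromosome 8 lay wholly in a Clone 6 domain, and a 43 kb domain on chromosome 13 (107022001 to 107065000) shared 2 kb, or 4.65% of its length. Such cases were few, because 6 overlapping domains shared under 10% of their length and 921 lay wholly inside Clone 6 domains.

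The near domains differed from the far ones in length and content. Domains within 50 kb had a median length of 25 kb, 3.10 protein-coding start sites per Mb and 7.83 CpGs per kb. Domains from 50 kb to 1 Mb had a median of 45 kb, 3.63 start sites per Mb and 6.92 CpGs per kb. Domains beyond 1 Mb had a median of 50 kb, 1.37 start sites per Mb and 6.32 CpGs per kb, and 56 of the 222 were 100 kb or longer. Many domains shared a score with a neighbour. Where neighbouring rows carry the same value of a score, they were taken as parts of 1 call in that replicate. By this reading 311 domains (40.3%) belonged to a call that also held an overlapping domain, while 461 (59.7%) did not. The 461 were not all separate calls, since only 108 of the 772 (14.0%) shared neither score with any neighbouring row. The linked 311 were short and near, with a median length of 26 kb and a median distance of 29 kb. The other 461 held 42.4 of the 54.0 Mb and 114 of the 133 domains of at least 100 kb, with a median distance of 950 kb. Of the domains within 50 kb, 198 (93.0%) were linked, and beyond 1 Mb none was.

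The domain farthest from Clone 6 was an 88 kb domain on chromosome 5 (96402001 to 96490000) with the start site of PCSK1, 17226 kb away. Of the other 9 farthest, 3 were also on chromosome 5, at 13758 to 14576 kb, and 1 was on chromosome 2. The remaining 5 lay between 80593001 and 81324000 on chromosome 12, at 13353 to 14006 kb. A 132 kb domain of that group (80638001 to 80770000) held MYF6 and MYF5, which encode muscle-determining transcription factors. The 10 farthest were 15 to 132 kb long.

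The distances can also be read from the stretches between Clone 6 domains. Clone 6 domains divided the autosomes into 1825 stretches, of which 312 held a domain of Clone 3 alone. A single domain was found in 161 stretches, while 36 stretches held at least 5 and together 321 of the 772. The 12 stretches with at least 10 held 174 domains and 15.2 Mb, or 28.1% of the length. Stretches over 10 Mb, not counting assembly gaps, held a domain in 28 of 38 cases (73.7%), against 125 of 1295 (9.65%) for stretches of at most 1 Mb. Per Mb of stretch, the coverage by domains of Clone 3 alone was 24.7 kb up to 1 Mb, 21.2 kb from 1 to 5 Mb, 17.5 kb from 5 to 10 Mb and 26.4 kb above, beside 22.5 kb over all stretches, so it did not rise steadily with the size of the stretch.

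The stretch with most length was 35 Mb of chromosome 2 (137822001 to 172772000), with 19 domains and 4.17 Mb. Its domains held 8 protein-coding start sites, those of FIGN, SCN3A, SCN2A, CSRNP3, GALNT3, SCN1A, SCN9A and B3GALT1. Of these, GALNT3, SCN1A and SCN9A fall outside the rule for named genes and are given because they complete the stretch. The 4 sodium channel genes lay in 2 domains. The first, of 666 kb, is described above, and the second, of 492 kb (165965001 to 166457000), held SCN1A and SCN9A, 6315 kb from Clone 6. GALNT3, which encodes an O-glycosylation enzyme, lay between them in a domain of 100 kb. The stretch also held 5 Clone 3 H3K9me3 domains of 0.215 Mb in all, none of which met a domain of Clone 3 alone. The next stretches by length were 13 Mb of chromosome 8 (117478001 to 130430000) with 17 domains and 1.59 Mb, 23.1 Mb of chromosome 2 (178760001 to 201876000) with 12 domains and 1.40 Mb, and 18.8 Mb of chromosome 5 (36078001 to 54886000) with 24 domains, the most of any stretch, and 1.31 Mb.

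**Figure D3:**
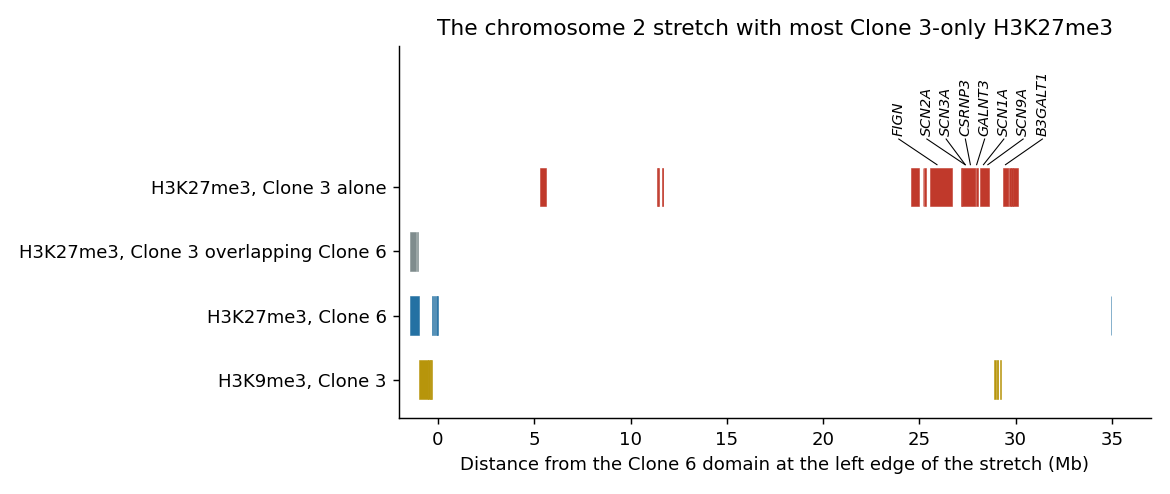
Map of the chromosome 2 stretch between Clone 6 H3K27me3 domains that held most length of domains of Clone 3 alone, in Mb from its left edge. Rows show H3K27me3 domains of Clone 3 alone, Clone 3 domains that overlap Clone 6, Clone 6 domains and Clone 3 H3K9me3 domains, and labels name the 8 protein-coding genes whose start sites lie in the 19 domains of Clone 3 alone.

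The chromosomes were unequal. Chromosome 2 held 102 domains of Clone 3 alone, 48.3% of its 211 Clone 3 domains and 9.31 Mb. Chromosome 5 held 78 of 163 (47.9%), chromosome 9 held 63 of 138 (45.7%) and chromosome 8 held 56 of 153 (36.6%). These 4 chromosomes, those with the most such domains, together held 299 of the 772 (38.7%). By share, chromosomes 6 (43.5%), 12 (41.5%) and 14 (37.5%) were above chromosome 8, beside 33.1% over the autosomes. Per Mb of chromosome, chromosome 2 had 38.7 kb of such domains, chromosome 9 had 35.1 kb, chromosome 8 had 31.2 kb and chromosome 5 had 27 kb. At the other end by number of domains, chromosome 22 had none among 25 Clone 3 domains. Chromosome 19 had 1 of 34, with 12 kb, and chromosome 21 had 4 of 26. Domains of Clone 6 alone were placed otherwise, with 23 on chromosome 22 (39.4 kb per Mb) and 22 on chromosome 19 (17.3 kb per Mb). On the 5 chromosomes of highest GC content (16, 17, 19, 20 and 22) there were 55 of the 772 domains of Clone 3 alone and 131 of the 632 of Clone 6 alone. Domains of Clone 3 alone made up 0 to 26.2% of Clone 3 domains on each of these, against 33.1% over the autosomes.

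**Figure D4:**
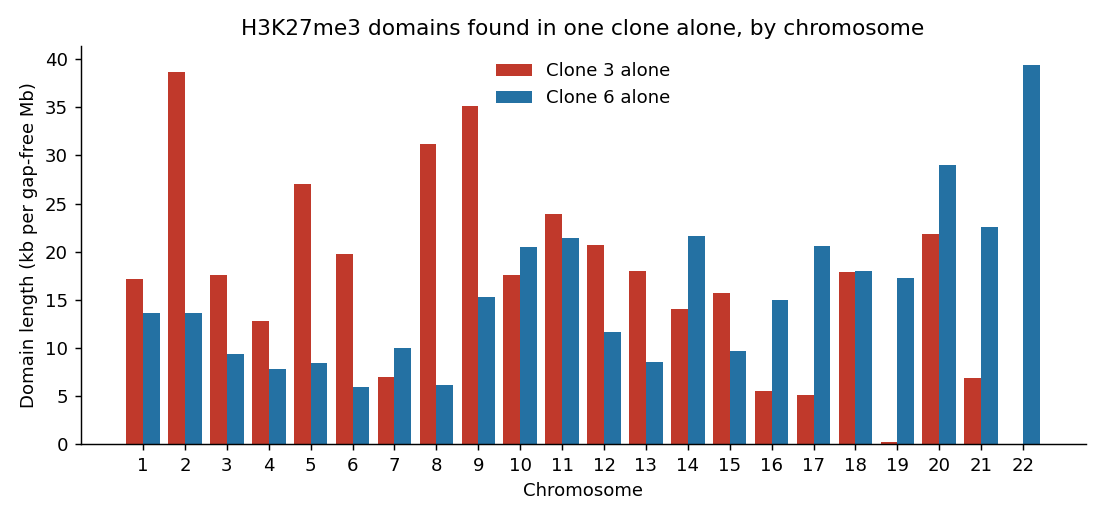
Length of H3K27me3 domains called in 1 clone alone, in kb per Mb of gap-free chromosome, for chromosomes 1 to 22. Clone 3 alone is highest on chromosome 2 at 38.7 and is 0 on chromosome 22, where Clone 6 alone is highest at 39.4.

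The DNA of the domains was poor in CpG. It held 6.82 CpGs per kb at a GC content of 38.8%, against 8.70 per kb and 41.6% in overlapping domains, 13.1 per kb and 46.1% in domains of Clone 6 alone, and 10.1 per kb and 41.0% over the autosomes. The median over the 772 domains was 6.67 per kb (quartiles 5.79 and 7.95) with a range of 2.77 to 21.2, and the median over overlapping domains was 8.33. The order was the same in each class of length, with 7.41 against 9.91 under 50 kb, 6.94 against 9.87 from 50 to 100 kb, and 6.52 against 8.54 at 100 kb or more. It was also the same on all 20 chromosomes that held 100 kb or more of both kinds, where domains of Clone 3 alone had 6.37 to 9.04 CpGs per kb and overlapping domains 7.30 to 10.5. Low-density CpGs, here those whose nearest CpG was at least 20 bp away, made up 66.7% of CpGs in domains of Clone 3 alone, 60.6% in overlapping domains, 48.3% in domains of Clone 6 alone and 52.7% over the autosomes. Base composition can affect the recovery of fragments in sequencing, and its part in these differences between the clones was not tested.

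**Figure D5:**
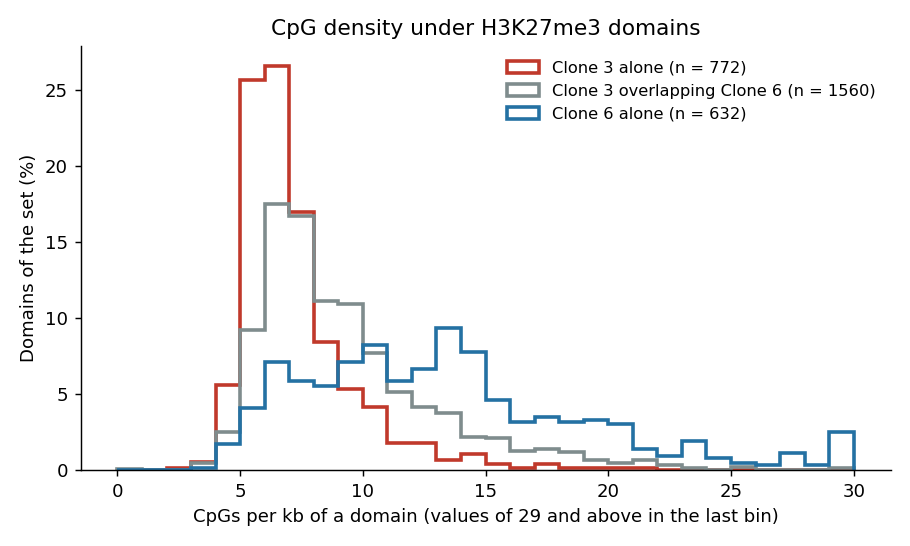
CpG density of H3K27me3 domains in CpGs per kb, for domains of Clone 3 alone, Clone 3 domains that overlap Clone 6, and domains of Clone 6 alone. The medians over domains are 6.67, 8.33 and 12.5, and the autosomes as a whole hold 10.1.

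Few genes began in these domains. They held the start sites of 146 of 19111 autosomal protein-coding genes, a background share of 0.764%, and overlapping domains held 1094 (5.72%). Of the 1240 genes that began in a Clone 3 domain, 11.8% were thus in a domain of Clone 3 alone, which is below the 14.5% that these domains made up of the length. The density was 2.70 start sites per Mb, beside 3.43 in overlapping domains, 8.30 in domains of Clone 6 alone and 6.93 over the autosomes. For long non-coding RNA genes it was 4.92, 5.64, 9.30 and 6.67 per Mb. By place, 470 of the 772 domains (60.9%) lay between protein-coding genes, 150 (19.4%) wholly inside a single gene without its start site, 47 (6.09%) met a gene in another way without a start site, and 105 (13.6%) held a start site. Overlapping domains lay between genes in 39.6% of cases and held a start site in 36.8%. The difference in start sites was smallest among short domains, with 8.84% against 13% under 50 kb, and largest at 100 kb or more, with 25.6% against 55.7%. Of the 146 genes, 120 had a RefSeq promoter, and for 114 of them it also lay in such a domain. Of the 105 domains with a start site, 75 held 1 gene and 30 held 2 to 4. Genes of at least 100 kb made up 41 of the 146 (28.1%), against 18.4% of all genes, while the median gene length was 24.4 kb against 27.9 kb over all genes.

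Among the domains with most start sites, 4 each, were domains of different kinds. A 430 kb domain on chromosome 9 (27105001 to 27535000), 295 kb from Clone 6, held TEK, the receptor for angiopoietins on endothelial cells, EQTN, a sperm acrosome gene, MOB3B, and IFNK, an interferon of keratinocytes. A 114 kb domain on chromosome 12 (55350001 to 55464000) held the odorant receptor genes OR6C75, OR6C65, OR6C76 and OR6C2. The latter domain shared a score with an overlapping domain.

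Domains with 3 start sites held the following genes. A 135 kb domain on chromosome 12 (68135001 to 68270000), 895 kb from Clone 6, held the T-cell and lymphoid cytokine genes IFNG, IL26 and IL22. A 58 kb domain on chromosome 17 (34232001 to 34290000), 22 kb from Clone 6, held the chemokine genes CCL2, CCL7 and CCL11. A 336 kb domain on chromosome 12 (21681001 to 22017000) held KCNJ8 and ABCC9, which encode the pore and the regulatory subunit of a vascular ATP-sensitive potassium channel, together with the GENCODE start of LDHB, a lactate dehydrogenase gene whose RefSeq start lay outside the domain. A 43 kb domain on chromosome 20 (45691001 to 45734000) held WFDC10B, WFDC13 and SPINT4, from a cluster of protease inhibitor genes. Among the 10 domains with the highest lower score, a 424 kb domain on chromosome 4 (79271001 to 79695000) held 2 start sites, those of the testis genes NAA11 and GK2.

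Of 22 gene groups defined by symbol, 9 had at least 1 start site in a domain of Clone 3 alone and 13 had none, and the counts below stand beside the 0.764% of all genes. Chemokines, interleukins and their symbol-matched receptors had 9 of 119 genes (7.56%), in 5 domains, and 7 genes (5.88%) in overlapping domains. Besides IL26 and IL22 they included IL1RL1 and IL18R1, receptors for IL-33 and IL-18, in a 63 kb domain on chromosome 2 (102261001 to 102324000) by their GENCODE starts. The RefSeq start of IL1RL1 lay in a neighbouring 25 kb domain of Clone 3 alone (102330001 to 102355000), and that of IL18R1 in none. Type 1 interferons had 1 of 17 genes, IFNK, and none in overlapping domains. Defensins had 4 of 46 (8.70%), DEFB126 to DEFB129, in 2 neighbouring domains of 22 and 67 kb on chromosome 20, and 8 (17.4%) in overlapping domains. Neighbouring genes of a cluster share a domain, so such counts rest on few calls.

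Olfactory receptors had 21 of 414 genes (5.07%) in 12 domains, but 158 (38.2%) in overlapping domains. Of the 21, 13 lay in 7 domains on chromosome 12, 84 to 455 kb from Clone 6, and 6 in 3 domains on chromosome 1, 50 to 174 kb from Clone 6. All 10 of these domains shared a second score with an overlapping domain, 202.8 on chromosome 12 and 247.1 on chromosome 1. The cytochrome P450 and UGT genes, which metabolise drugs, steroids and bilirubin, had 2 of 79 (2.53%), CYP2C19 and CYP2C8, and 12 (15.2%) in overlapping domains. Secreted WNT antagonists had 1 of 11, WIF1, in a 28 kb domain 1274 kb from Clone 6, and also 1 of 11 in overlapping domains.

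The transcription factor groups and most other groups had 1 GENCODE start site or none in domains of Clone 3 alone, and only start sites are counted here. Over all genes the share was 0.764% there and 5.72% in overlapping domains. In the smaller groups 1 or none is about what 0.764% gives, so it shows no depletion. Homeobox transcription factors outside the HOX clusters had 1 of 143 (0.699%), POU4F3, a sensory neuron factor, and 20 (14.0%) in overlapping domains. HOX genes had 0 of 39 in both kinds of Clone 3 domain. The FOX, SOX, TBX and GATA factors had 0 of 87 and 10 in overlapping domains, and potassium channels 1 of 94 (1.06%), KCNJ8, and 18 (19.1%). Neurotransmitter-gated channels had 0 of 57 and neural adhesion genes 0 of 97, with 5 and 13 in overlapping domains. The epidermal differentiation complex, which builds the cornified layer of skin, had 0 of 54 genes in domains of Clone 3 alone but 42 (77.8%) in overlapping domains. C-type lectins and killer receptors had 0 of 43 and 14 (32.6%). Solute carriers had 1 of 359 (0.279%), SLC7A14, and 24 in overlapping domains. The groups of ZNF genes (503), clustered protocadherins (53), other protocadherins (10), cadherins (23), keratins and keratin-associated proteins (149), serpins (34) and taste receptors (24) had no start site in domains of Clone 3 alone. By gene body, SLIT2 (neural adhesion), KCNH7 (potassium channels) and SLC8A1 (solute carriers) had 91.3%, 88.5% and 91.0% of their length in domains of Clone 3 alone.

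Clone 3 H3K9me3 domains covered 374 Mb, or 13.6%, of the autosomes. Of the 772 domains, 13 (1.68%) met a Clone 3 H3K9me3 domain, with 0.425 Mb or 0.787% of their length, against 46 of 1560 overlapping domains (2.95%) with 3.66 Mb or 1.15%. Of the 632 domains of Clone 6 alone, 32 (5.06%) met a Clone 3 H3K9me3 domain, with 2.19 Mb or 5.92% of their length. Within 100 kb of H3K9me3 lay 56 (7.25%) against 210 (13.5%), and the median distance to H3K9me3 was 2.50 Mb against 1.42 Mb. The 13 domains held no start site, were 18 to 65 kb long, lay 4 to 218 kb from Clone 6, and each shared a score with an overlapping domain. No domain more than 1 Mb from Clone 6 met H3K9me3.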

How the data were processed

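H3K27me3 was measured in 2 samples of Clone 3 and 2 of Clone 6, H3K9me3 in 2 of Clone 3, and the 1 input sample of Clone 3 was not used here. Per the labels and methods, read pairs of 50 bp each were trimmed with Trim Galore 0.5.0, checked with FastQC 0.11.8, aligned to hg38 with Bowtie2 2.3.5 and deduplicated, and broad domains were called with Enriched Domain Detector at default settings. The authors deposited the domains found in both replicates, as 1 set per clone and mark, and gave every domain 2 values of unit score without naming their scale or the replicate behind each. bcl2fastq 1.9.0, deepTools 3.2.0 and bedtools 2.25.0 are also in the submitters' processing notes.

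Coordinates are hg38, counted from 1. Overlap and distance were computed base by base with Python 3.11.15, numpy 2.4.6 and pandas 2.3.3, and intervals of shares (exact binomial) with scipy 1.17.1. Code was tested on 1200 simulated intervals and recovered the overlap and distance of all 1200. Intervals of medians are order-statistic intervals at the 95% level, and treat domains as independent, which neighbouring domains are not. Genes and start sites came from GENCODE 44, protein-coding unless stated, and CpGs from the hg38 sequence. Promoters came from RefSeq. Chromosome X (112 domains without a Clone 6 partner among 264) and contigs (1 of 4) were left out by the rule.

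The members and gene lists were chosen with earlier results of these data known. Domains were named as the 10 longest, farthest from Clone 6, highest by lower score and richest in start sites, and genes as all of a group with up to 4 members in these domains (otherwise the 4 in the longest domains) and the 10 with most bases covered. Some items that this rule names are not reported here. The alternatives tried changed the minimum length, the distance and overlap limits, the score, the joining of rows, the chromosomes, the CpG spacing and the use of gene bodies.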

Additional observations from a re-analysis of the deposited data

How the results depend on the processing

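Of 56 values under other settings, 25 stayed near the main value and 31 moved. The number and the total length of domains were taken to move when they changed by over 1.5 times, and the other values when they left the 95% interval of the main value. For CpG density and the low-density share this interval treated single bases or CpGs as independent and was narrow. It ran from 6.80 to 6.85 per kb and from 66.6 to 66.9%, so small changes counted as moved. Keeping domains of at least 100 kb left 133 domains and 29.4 Mb, with a median length of 160 kb, a median distance of 761 kb, 1.91 start sites per Mb, 6.52 CpGs per kb, 67.7% low-density CpGs, 0% meeting H3K9me3 and 14.3% linked by a score. Keeping the upper 50% of Clone 3 domains by lower score left 223 domains and 33.0 Mb, with 95 kb, 487 kb, 2.03 start sites per Mb, 6.54 CpGs per kb, 68.0% low-density CpGs, 0.897% meeting H3K9me3 and 31.8% linked. Keeping domains at least 50 kb from Clone 6 gave medians of 47 kb and 627.5 kb, 6.66 CpGs per kb, 67.3% low-density CpGs and 20.6% linked. Joining rows at most 10 kb apart gave 489 domains, 61 kb, 441 kb, 6.75 CpGs per kb and 67% low-density CpGs, and no linked share could be given. Allowing under 10% of the length in Clone 6 gave 6.80 CpGs per kb. Counting gene bodies gave 5.50 genes per Mb, and a spacing of 35 bp gave 51.8% low-density CpGs. In all 6 settings that changed the members, their CpG density stayed below that of overlapping domains (6.52 to 6.81 against 8.53 to 8.71). These 6 settings were applied to the low-density share and to H3K9me3 after seeing the data. No paired analysis was possible because the domain sets used here hold the replicates merged and no result comes from a test, and for the same reason no replicate could be left out. The depth of each library is not in the files, and the methods give only a minimum. Each clone is 1 line, so the spread between clones or cultures cannot be given.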

Other observations

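The genes of this paragraph fall outside the rule for named genes and were chosen singly after their values were seen, so they stand for no group. Of the groups defined by symbol, neurotransmitter-gated channels and taste receptors had no start site in domains of Clone 3 alone. SST, the gene of the inhibitory hormone somatostatin, lay with its whole body in a 229 kb domain 946 kb from Clone 6. VIP, the gene of vasoactive intestinal peptide, lay in a 240 kb domain 6210 kb away, and OPRM1, the mu opioid receptor gene, began in a 131 kb domain 5098 kb away. OPRK1, the kappa opioid receptor gene, lay in a 286 kb domain 433 kb away. GRM3, a metabotropic glutamate receptor gene, began in a 174 kb domain 6368 kb away. TRPA1, an irritant-sensing ion channel gene, lay in a 169 kb domain 439 kb away.

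Of 1461 autosomal miRNA hairpins in the RefSeq table, 13 (0.89%) lay in domains of Clone 3 alone, beside 0.764% of protein-coding start sites and 1.96% of autosomal sequence. Among them were MIR218-1 inside SLIT2, MIR605 inside PRKG1, MIR551B in the 516 kb domain of chromosome 3, and MIR617 in a 112 kb domain of chromosome 12 near those of MYF6 and MYF5.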
